A study of Mus musculus with 12 samples.

Results

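The immediate early genes described here are 10 mouse transcription factor genes, the AP-1 genes Fos, Fosb, Fosl1, Fosl2, Jun, Junb, Jund and Atf3, the zinc finger gene Egr1 and the orphan nuclear receptor gene Nr4a1. They were chosen by symbol, with earlier results of these data known, and all 10 were found among the 35453 rows of the mRNA table. All 10 also had a mean log2 value of at least 4, the condition for entering the test, as did 14098 genes in all. Balb/c mice were inoculated with 4T1, a mammary carcinoma line from the same species, and the tumours were removed 35 days later. The stress group had been restrained for 2 hours a day on 28 consecutive days. The control group also bore 4T1 tumours and was left untreated. Each group had 3 mRNA libraries made from whole tumour RNA.

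Immediate early genes are transcribed within minutes of a stimulus such as a growth factor, wounding or a stress signal, from factors that are already present in the cell, and many of their mRNAs decay quickly. FOS and JUN family proteins pair to form AP-1, which binds DNA through a basic leucine zipper. ATF3 is a related leucine zipper protein induced by cell stress, EGR1 binds GC-rich promoter elements, and NR4A1 is a nuclear receptor whose activity follows its own abundance. In mammary carcinoma AP-1 is known as a driver of invasion genes.

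Across the 10 genes no difference between stressed and control tumours passed the test (limma, Benjamini-Hochberg adjusted p under 0.05). Of all genes tested 5 did, or 0.0355%, with 0.0213% higher and 0.0142% lower in stress. The stress mean was the higher of the 2 in 7 of the 10 genes and in 50.6% of all genes tested. The median difference, stress minus control on the log2 scale, was 0.21 for the 10 genes and 0.00140 for all genes tested. Atf3 and Jun were the 2 genes in which every stress library lay above every control library, an arrangement found in 12.1% of all genes tested. In none of the 10 did every stress library lie below every control library, as 12.3% of all genes tested did. At an unadjusted p under 0.05 Atf3, Jun and Fosl2 were higher in stress, which holds for 8.26% of all genes tested, and no gene of the group was lower, against 9.15% of all genes tested. For a single gene, the smallest p that an exact two-sided permutation test allows with 3 libraries a side is 0.1.

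One control library stood apart in most of these genes. Control replicate 2 had the highest value of the 3 control libraries in all 10 genes, which was so in 36.1% of all genes tested. It had the highest value of all 6 libraries in Fos, Fosb, Egr1 and Nr4a1, against 18.9% of all genes tested. Among the stress libraries, replicate 3 was the highest in 8 of the 10 genes, against 37.2% of all genes tested. Marker lists of cell types that a tumour can hold varied between the libraries too. Of 18 fibroblast and collagen markers, 15 were highest in control replicate 2. Their summed level on the log2 scale was 16.96 to 17.26 in stress libraries and 17.18 to 18.11 in control libraries, with control replicate 2 at the top. The summed level of 12 neutrophil markers was 12.61 to 13.20 in stress libraries and 11.83 to 12.60 in control libraries, with control replicate 2 at the bottom. The summed level of 16 skeletal muscle markers was 11.71 to 13.25 in stress libraries and 12.85 to 14.30 in control libraries, with stress replicate 3 lowest and control replicate 3 highest. The summed level of 2 adipocyte markers was 8.49 to 8.93 in stress libraries and 9.02 to 9.75 in control libraries, with control replicate 2 at the top. Endothelial markers, 13 in number, had a summed level of 13.28 to 13.50 in stress libraries and 13.51 to 13.68 in control libraries. The summed level of 15 T and NK cell markers was 10.75 to 11.40 in stress libraries and 10.44 to 11.17 in control libraries, with control replicate 2 at the bottom. Macrophage markers, 13 in number, had a summed level of 15.09 to 15.72 in stress libraries and 15.42 to 15.50 in control libraries, and 3 B and plasma cell markers one of 8.77 to 9.43 in stress libraries and 9.19 to 9.74 in control libraries. Epithelial markers, 9 of 10 tested, had a summed level of 15.29 to 15.45 in stress libraries and 15.30 to 15.45 in control libraries. The levels rest on the markers that passed the filter, 2 of 6 for adipocytes, 12 of 16 for neutrophils, 13 of 14 for macrophages and 3 of 8 for B and plasma cells. No marker of these 9 lists was listed at 0, and the part of these cells in the results was not tested. In whole tumours, fewer cells of a type and less RNA per cell cannot be told apart.

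**Figure D1:**
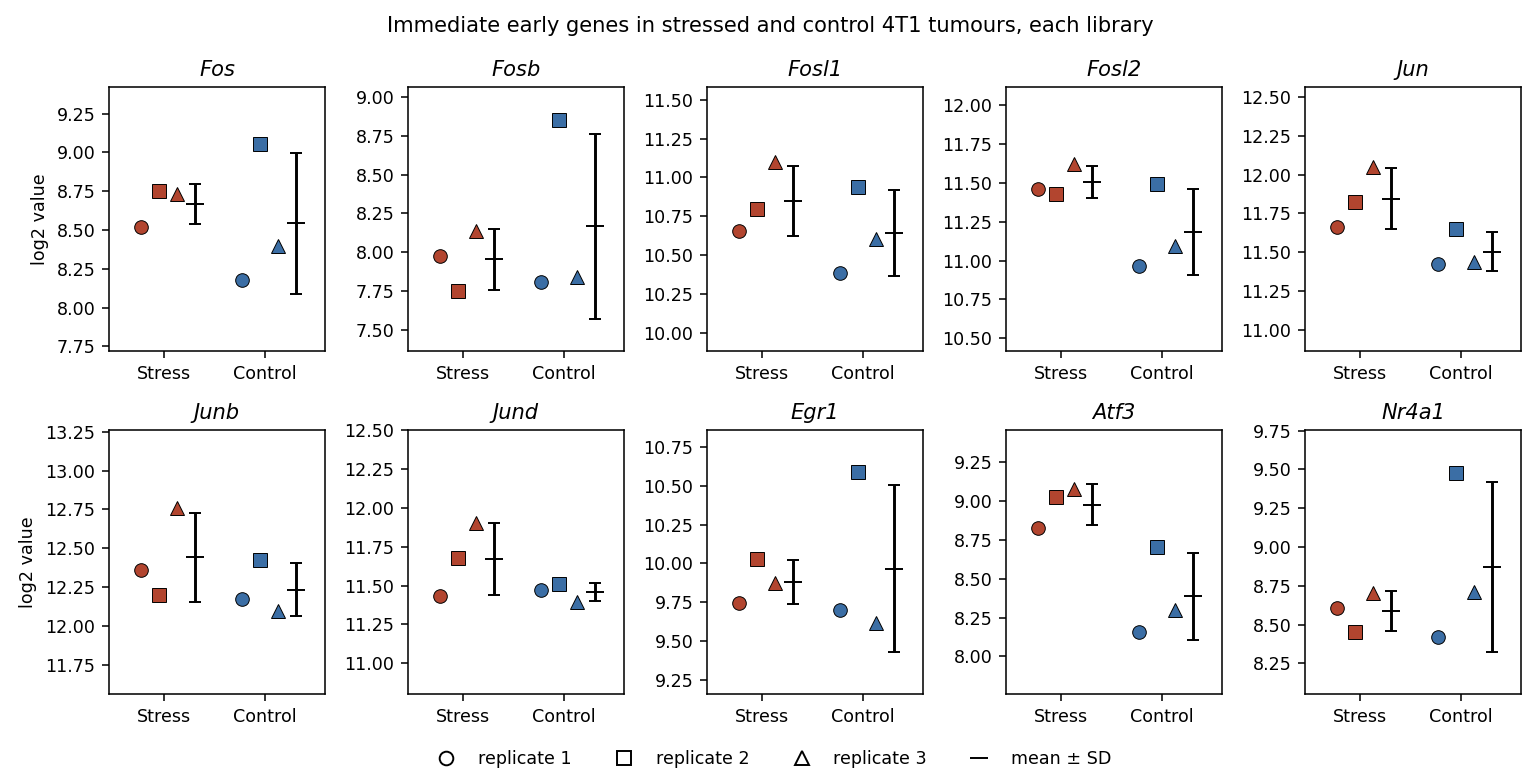
Log2 value of each of the 10 genes in the 3 stress libraries (red, left) and the 3 control libraries (blue, right), with symbols for replicate numbers and bars for mean ± SD; each panel spans the same height on the log2 scale. Control replicate 2 is the top control library in all 10 panels and the top library of all in Fos, Fosb, Egr1 and Nr4a1.

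The start regions of 4 genes are shown because they stand for the patterns that follow: Fos, Fosb and Nr4a1 were highest in control replicate 2, and Atf3 was highest in the stress libraries. The sequences are RefSeq promoters on GRCm38.p6, 5' to 3' on the gene's strand, from 250 bases before to 50 bases after the start site. They lie at chr12:85473640-85473939 (Fos, plus strand), chr7:19309996-19310295 (Fosb, minus), chr15:101266596-101266895 (Nr4a1, plus) and chr1:191183284-191183583 (Atf3, minus). Capitals mark TGACG on either strand (the core of the cAMP response element bound by CREB and ATF proteins), GCGGGGGCG or GCGTGGGCG on either strand (EGR motifs), and TATAAA on the gene's strand (the TATA box).
Fos: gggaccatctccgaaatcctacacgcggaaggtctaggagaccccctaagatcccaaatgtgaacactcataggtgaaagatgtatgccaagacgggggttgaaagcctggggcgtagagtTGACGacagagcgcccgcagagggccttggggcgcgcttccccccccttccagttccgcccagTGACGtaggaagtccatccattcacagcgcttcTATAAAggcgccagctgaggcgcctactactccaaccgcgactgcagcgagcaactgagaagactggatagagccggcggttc
Fosb: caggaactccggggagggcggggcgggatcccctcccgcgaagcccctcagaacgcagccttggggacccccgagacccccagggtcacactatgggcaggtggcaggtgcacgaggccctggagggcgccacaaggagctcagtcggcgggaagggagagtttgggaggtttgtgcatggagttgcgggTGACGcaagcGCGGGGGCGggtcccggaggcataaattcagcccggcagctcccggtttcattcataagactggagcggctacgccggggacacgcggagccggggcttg
Nr4a1: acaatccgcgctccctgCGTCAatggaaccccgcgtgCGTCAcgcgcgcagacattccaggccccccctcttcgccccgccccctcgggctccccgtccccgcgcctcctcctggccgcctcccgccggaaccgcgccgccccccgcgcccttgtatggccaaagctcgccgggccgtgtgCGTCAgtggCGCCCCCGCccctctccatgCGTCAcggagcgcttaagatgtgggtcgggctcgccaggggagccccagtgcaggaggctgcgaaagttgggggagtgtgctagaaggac
Atf3: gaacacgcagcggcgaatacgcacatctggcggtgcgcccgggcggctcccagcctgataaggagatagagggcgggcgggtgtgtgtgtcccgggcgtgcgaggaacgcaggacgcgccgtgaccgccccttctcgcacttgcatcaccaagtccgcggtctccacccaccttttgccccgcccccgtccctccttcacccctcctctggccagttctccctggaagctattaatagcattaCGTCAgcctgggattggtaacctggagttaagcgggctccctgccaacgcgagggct
TGACG stood in 20.8% of all 32851 promoters of this length, an EGR motif in 3.47% and TATAAA in 8.32%. The Fos region held TGACG at 2 places, 129 and 66 bases before the start site, and a TATA box 33 bases before it. The Fosb region held TGACG 60 bases and an EGR motif 50 bases before the start. Nr4a1 had TGACG at 4 places and an EGR motif 60 bases before the start, and Atf3 had TGACG 7 bases before it. Of the 10 genes 8 had a RefSeq promoter in the table used, not Fosl1 or Egr1. Among the other matched genes, Junb also held TGACG, and TATAAA at the start site itself. Fosl2 held an EGR motif, while Jun and Jund held none of these. Not every RefSeq start was the outer end of the gene in GENCODE M21. The Nr4a1 window lies inside the gene (from 101254269, plus strand), as does that of Atf3 (to 191218039, minus strand). The Fosl2 window (chr5:32136222-32136521) also lies inside its gene (from 32135801, plus strand). The Jund window (chr8:70697489-70697788) ends before the gene begins at 70698949. For these genes the matches, or their absence, describe the window used and not every start of the gene. The full element TGACGTCA (1.79% of all promoters) and the AP-1 motifs TGAGTCA and TGACTCA (5.2%), searched on both strands, were in none of the 8 windows. A match is a description of the letters, and binding was not measured.

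Fos encodes the founding partner of JUN in AP-1 and lies on chromosome 12 (85473890 to 85477273, plus strand, GENCODE M21 on GRCm38). It had log2 values of 8.52, 8.75 and 8.73 in stress replicates 1 to 3, against 8.18, 9.05 and 8.39 in control replicates 1 to 3. The stress libraries lay close together, between the extremes of the control group, so the groups overlapped. The difference was 0.13 ± 0.21 (SE; limma adjusted p = 0.794). Control replicate 2 was the highest control in all 10 genes, so leaving it out raises each difference by construction, here and in the genes below. Without it all stress libraries lay above both remaining controls (17.8% of all genes tested). The difference of Fos was then 0.38 ± 0.11 (SE, limma adjusted p = 0.230).

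Fosb, which encodes a close paralogue of FOS, lies on the minus strand of chromosome 7 (19302696 to 19310051). Its values were 7.98, 7.75 and 8.14 in stress libraries, against 7.81, 8.85 and 7.84 in control libraries. The stress libraries and 2 of the controls were level, and control replicate 2 stood 1.03 above the mean of the other controls on the log2 scale, or 2.04-fold. The difference between groups was -0.21 ± 0.28 (SE; adjusted p = 0.730), and without control replicate 2 it was 0.13 ± 0.12 (SE; adjusted p = 0.644).

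Fosl1 and Fosl2 encode the FOS-related proteins FRA-1 and FRA-2, which lack the strong activation domain of FOS. Fosl1 (chromosome 19, 5447547 to 5455946, plus strand) had 10.65, 10.80 and 11.10 in stress libraries, against 10.38, 10.94 and 10.61 in control libraries. Fosl2 (chromosome 5, 32135801 to 32157842, plus strand) had 11.46, 11.43 and 11.62 in stress libraries, against 10.97, 11.49 and 11.09 in control libraries. In both genes stress replicate 3 was the highest library, control replicate 1 the lowest, and control replicate 2 lay among the stress libraries. The differences were 0.21 ± 0.16 for Fosl1 (SE; adjusted p = 0.531) and 0.32 ± 0.13 for Fosl2 (SE; adjusted p = 0.279). Without control replicate 2, the highest control, they were 0.36 ± 0.14 for Fosl1 (adjusted p = 0.326) and 0.48 ± 0.08 for Fosl2 (adjusted p = 0.144). The rise follows by construction. In that fit every stress library lay above both controls (17.8% of all genes tested). Of the exonic bases of Fosl1, 57.2% are shared with Ccdc85b on the opposite strand, which was 0.20 higher in stress on the log2 scale. Strand use in the counting was not given in the sources used here, so reads of the pair cannot be told apart.

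Jun, which encodes the main JUN partner of FOS, was the JUN gene whose groups did not overlap. Jun (chromosome 4, 95049034 to 95052222, minus strand) had log2 values of 11.66, 11.83 and 12.05 in stress libraries, against 11.43, 11.65 and 11.44 in control libraries. The lowest stress library (11.662) and control replicate 2 (11.653) were nearly level. Stress exceeded control by 0.34 ± 0.11 (SE; 1.27-fold higher, limma adjusted p = 0.192). The antisense gene Junos shares 7.28% of the exonic bases of Jun.

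Junb, which encodes a JUN protein that can restrain JUN activity, lies on chromosome 8 (84974484 to 84978718, minus strand). It had 12.36, 12.20 and 12.76 in stress libraries, against 12.17, 12.42 and 12.10 in control libraries. Stress replicate 3 was the highest and the groups overlapped. Jund, a JUN gene that most tissues express steadily, lies on the same chromosome (70698949 to 70700616, plus strand) and had 11.44, 11.68 and 11.90 in stress libraries, against 11.47, 11.51 and 11.40 in control libraries. Its controls were tightly grouped (SD 0.0563, n = 3), while its stress libraries had an SD of 0.233 (n = 3), and stress replicate 1 lay among the controls. The differences were 0.21 ± 0.15 for Junb (SE; limma adjusted p = 0.504) and 0.21 ± 0.11 for Jund (SE; limma adjusted p = 0.364). Without stress replicate 3 they were 0.05 for Junb and 0.10 for Jund. Jund shares 52.6% of its exonic bases with the antisense gene Gm11175, and Junb 7.52% with Prdx2 on the opposite strand, which limits what can be said of each gene alone.

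Atf3 had the largest difference of the 10 genes. It lies on chromosome 1 (191170296 to 191218039, minus strand). Its log2 values were 8.83, 9.03 and 9.08 in stress libraries, against 8.16, 8.70 and 8.30 in control libraries. All stress libraries lay above all controls, with control replicate 2 nearest to them. The means were 8.98 ± 0.13 in stress and 8.39 ± 0.28 in control (SD, n = 3 each), so stress exceeded control by 0.59 ± 0.14 (SE; 1.51-fold higher, limma adjusted p = 0.138). By p-value it was number 421 of the 14098 genes tested. Leaving out control replicate 2, the highest control, raises the difference by construction, to 0.75 ± 0.10 (SE, 1.68-fold, limma adjusted p = 0.115). No single library left out brought its adjusted p under 0.05, and the difference stayed above 0 in all 14 alternative settings, between 0.48 and 0.75.

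Egr1 and Nr4a1, like Fos and Fosb, had their highest value in control replicate 2. Egr1 (chromosome 18, 34859823 to 34864984, plus strand) had 9.75, 10.03 and 9.87 in stress libraries, against 9.70, 10.59 and 9.61 in control libraries. Nr4a1 (chromosome 15, 101254269 to 101274795, plus strand) had 8.61, 8.45 and 8.70 in stress libraries, against 8.42, 9.48 and 8.71 in control libraries. In both genes the stress libraries lay close together, and control replicate 2 was above every other library. Its distance from the mean of the other controls was 0.93 for Egr1 (1.91-fold) and 0.91 for Nr4a1 (1.88-fold). The differences between groups were -0.08 ± 0.25 for Egr1 (SE; limma adjusted p = 0.893) and -0.28 ± 0.25 for Nr4a1 (SE; adjusted p = 0.590). Without control replicate 2 both turned positive, to 0.23 ± 0.09 for Egr1 (SE; adjusted p = 0.340) and 0.02 ± 0.12 for Nr4a1 (SE; adjusted p = 0.950).

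**Figure D2:**
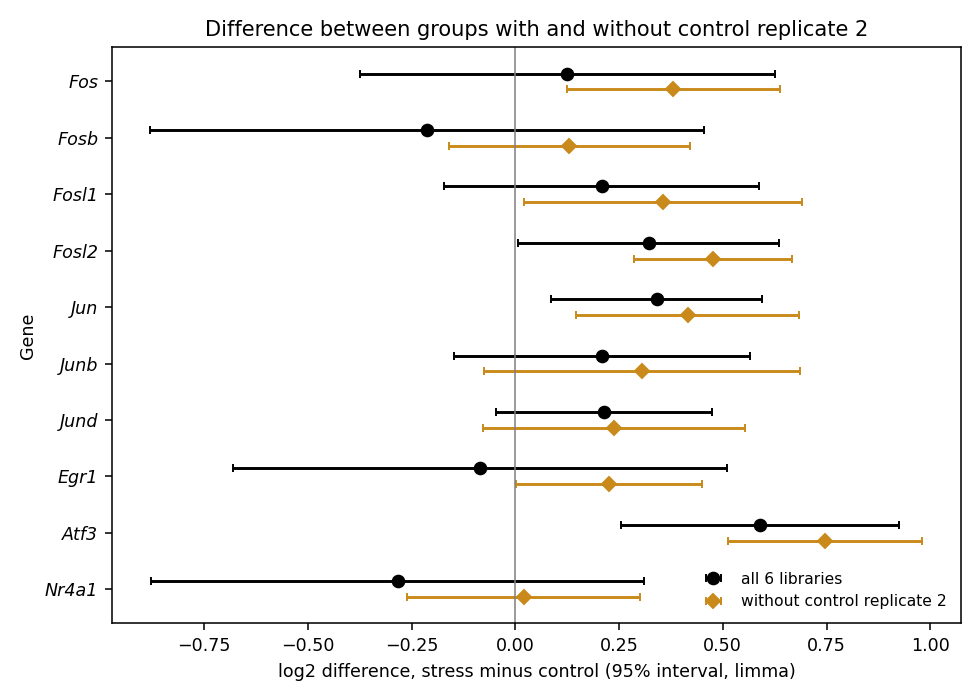
Difference between stress and control on the log2 scale for each of the 10 genes, with 95% intervals from limma, from all 6 libraries (black circles) and without control replicate 2 (orange diamonds). Fosb, Egr1 and Nr4a1 change sign between the 2 fits; Atf3 is the farthest from 0 in both, at 0.59 and 0.75.

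Since control replicate 2 was the highest control in all 10 genes, leaving it out raises each of their differences by construction. The refits above and the following counts describe that library rather than add support. All 10 differences were positive without it, where 49.9% of all genes tested were positive. The median difference of the 10 genes was then 0.33, against -0.000244 for all genes tested. In 7 of the 10 genes all 3 stress libraries lay above both remaining controls, as in 17.8% of all genes tested. At an unadjusted p under 0.05, 6 of the 10 were higher in stress, as were 7.50% of all genes tested. None of the 10 passed the adjusted threshold in this fit either, and 5 of all genes tested did, again 0.0355%. Leaving out control replicate 1, the lowest of all 6 libraries in 6 of the 10 genes (13.5% of all genes tested), had the opposite effect: the median difference was 0.13, and that of Fos was -0.06. With the mean level of the neutrophil markers as a covariate the differences of Junb (-0.09 ± 0.23, SE) and Egr1 (0.34 ± 0.41, SE) changed sign. That level was 7.75 to 8.33 in stress libraries and 7.43 to 7.64 in control libraries, so the covariate largely follows the group. With the level of the muscle markers the differences of Junb (0.02 ± 0.18), Jund (0.06 ± 0.13) and Egr1 (0.02 ± 0.34) lay near 0 (SE). The difference of Egr1 changed sign there. The mean muscle level was 7.21 to 8.44 in stress libraries and 8.20 to 9.38 in control libraries, so this covariate follows the group in part. What lies behind these changes was not tested.

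The spread between single libraries was wide for these genes. The pooled SD within groups had a median of 0.245 on the log2 scale over the 10 genes, against 0.0854 over all genes tested. Fosb had the widest, 0.443, wider than in 98.9% of all genes tested, followed by Nr4a1 (0.397), Egr1 (0.394) and Fos (0.335). Jun (0.165) and Jund (0.170) had the narrowest. For Fos, Fosb, Egr1 and Nr4a1 the spread sat in the control group: their SD was 0.128 to 0.196 in stress and 0.455 to 0.594 in control (n = 3 each). For Jun, Junb and Jund it was the reverse, with 0.195 to 0.288 in stress and 0.0563 to 0.172 in control. Without control replicate 2 the median pooled SD of the 10 genes was 0.158. That library was the highest control in all 10 genes, so this value describes it and adds no support. The median over all genes tested for the same libraries is not given here.

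**Figure D3:**
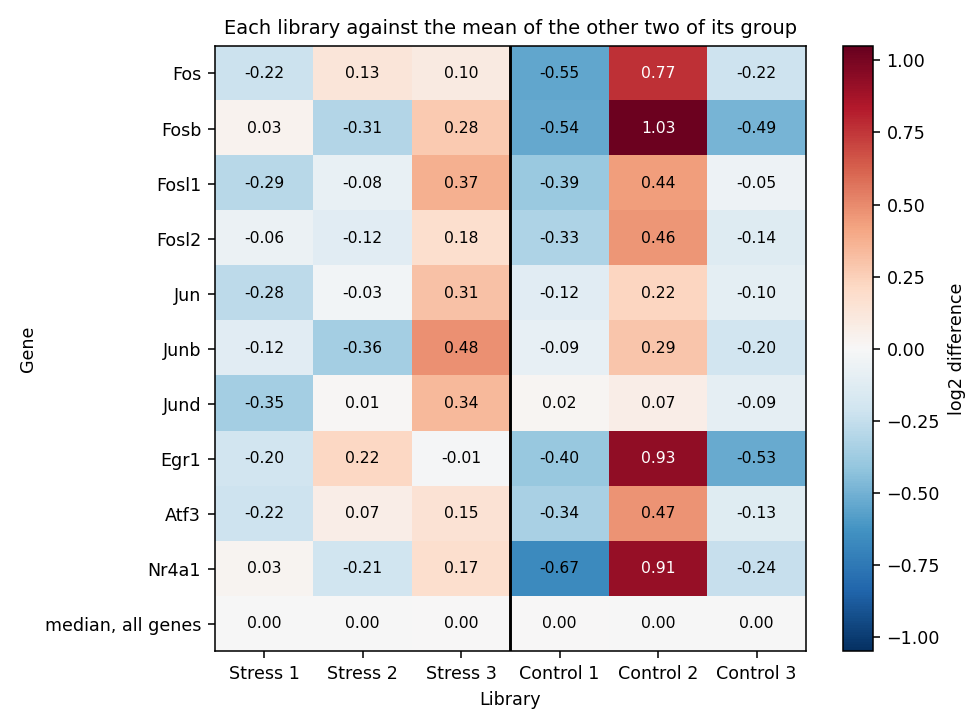
Each library's log2 value minus the mean of the other two libraries of its group, for the 10 genes and as a median over all genes tested, with the stress libraries left of the line and the control libraries right of it. Control replicate 2 reaches 1.03 in Fosb, 0.93 in Egr1, 0.91 in Nr4a1 and 0.77 in Fos, and stress replicate 3 reaches 0.48 in Junb; the medians over all genes lie within 0.005 of 0.

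The 10 genes did not share a single pattern over the 6 libraries. Likeness was taken as the root mean square difference between log2 values after each gene was centred on its own mean over the 6 libraries, with 0 for an identical pattern. Jun and Jund were the most alike pair (0.0884), then Fosb and Nr4a1 (0.0988) and Fosl1 and Fosl2 (0.104). The least alike were Atf3 and Nr4a1 (0.474) and Fosb and Atf3 (0.462). Fos lay nearest to Fosl1 (0.150) and Egr1 (0.153). Outside the group, the genes nearest to the mean pattern of all 10 were Cdkn1a (0.0485), the cyclin-dependent kinase inhibitor p21, Slc16a3 (0.0734), a lactate transporter, Fstl3 (0.0776), Serac1 (0.0783) and Egln1 (0.0789), a prolyl hydroxylase of HIF. Cdkn1a had 9.95, 9.96 and 10.19 in stress libraries, against 9.71, 10.26 and 9.87 in control libraries, so it too was highest in control replicate 2. Nearest to Fos alone were Folr2 (0.0968), Stxbp6 (0.101) and Slc16a3 (0.122).

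The other genes of these families held both patterns. Of 15 tested genes 8 were higher and 7 lower in stress, and none passed the adjusted threshold. All stress libraries lay above all controls in 5 of them, Maff and Mafk and also Atf2, Jdp2 and Nab1, which are named after their values were seen (12.1% of all genes tested). The EGR paralogues Egr2 and Egr3 and the NR4A paralogues Nr4a2 and Nr4a3, described after their values were seen, all had their highest value in control replicate 2. Egr3 had 7.87, 7.79 and 7.70 in stress libraries, against 8.06, 8.63 and 7.77 in control libraries. Nr4a3 had 6.59, 6.68 and 6.33 in stress libraries, against 6.53, 7.31 and 6.69 in control libraries. Neither group difference passed (Egr3 -0.37, limma adjusted p = 0.389, and Nr4a3 -0.31, limma adjusted p = 0.468). The small MAF genes Maff and Mafk, which encode partners of leucine zipper proteins, had the smallest p-values of the list. Maff had 9.21, 9.27 and 9.61 in stress libraries, against 8.82, 9.07 and 8.97 in control libraries, a difference of 0.40 ± 0.12 (SE; limma adjusted p = 0.166). Mafk was 0.22 ± 0.07 higher (SE; limma adjusted p = 0.194), also with no overlap between groups.

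**Figure D4:**
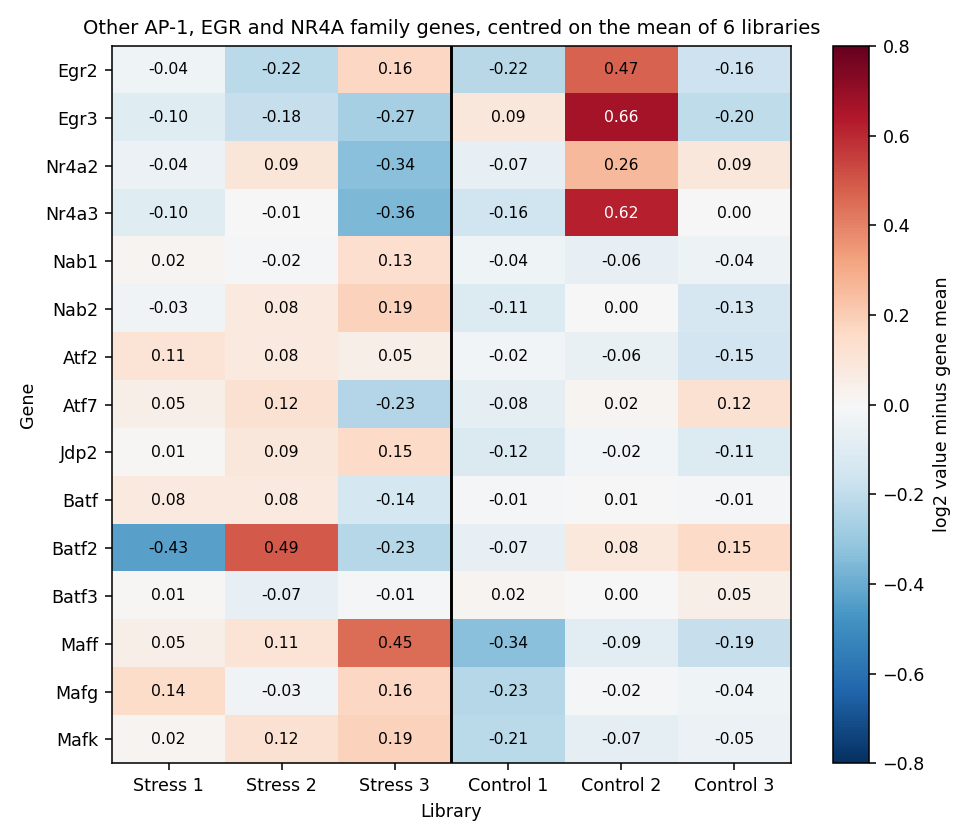
Log2 values of 15 other AP-1, EGR and NR4A family genes, each minus its mean over the 6 libraries, with the stress libraries left of the line and the control libraries right of it. Egr2, Egr3, Nr4a2 and Nr4a3 are highest in control replicate 2 (Egr3 at 0.66), whereas Maff is highest in stress replicate 3 (0.45).

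A wider list of 34 other immediate early genes, from RNA-binding proteins to clock and growth genes, was also examined. Of these 25 were higher and 9 lower in stress, with a median difference of 0.15 on the log2 scale, and none passed the adjusted threshold. All stress libraries lay above all controls in 10 genes (12.1% of all genes tested) and below them in 1 (12.3%), Arc, which is named after its values were seen. Arc had log2 values of only 4.05 to 4.17, near the filter of 4, and its difference was -0.06 (limma adjusted p = 0.422). The smallest p-values belonged to Zfp36l1, an RNA-binding protein that promotes mRNA decay (0.18 ± 0.04 higher, limma adjusted p = 0.135), and Per1, a clock gene that glucocorticoids and cAMP induce. Per1 had 10.45, 10.69 and 10.59 in stress libraries, against 9.48, 10.03 and 10.25 in control libraries, a difference of 0.66 ± 0.19 (SE; limma adjusted p = 0.165). Control replicate 2 was the highest control in 28 of the 34 genes (36.1% of all genes tested) and the highest library in 8 (18.9% of all genes tested).

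The lists of regulators and targets held no gene past the adjusted threshold. Of 31 kinases and transcription factors that act upstream, 17 were higher and 14 lower, with a median difference of 0.03. Map3k1, a kinase upstream of JNK, had the smallest p (0.58 ± 0.12 higher, limma adjusted p = 0.113), followed by Map2k1, the ERK kinase MEK1 (0.21 ± 0.07 higher, limma adjusted p = 0.217). Of 17 MAPK phosphatases and feedback inhibitors 12 were higher and 5 lower, with a median of 0.09. Dusp16, a phosphatase of JNK and p38, was 0.27 ± 0.06 higher (limma adjusted p = 0.120), and Spred1, an inhibitor of RAF activation, was 0.15 ± 0.04 higher (limma adjusted p = 0.166). Of 31 AP-1 and EGR1 target genes 17 were higher and 14 lower, with a median of 0.06. The smallest p-values belonged to the neutrophil-attracting chemokine Cxcl1 (0.71 ± 0.19 higher, limma adjusted p = 0.153) and the cytokine Il11 (-0.27 ± 0.07, limma adjusted p = 0.154). Control replicate 2 was the highest control in 15 of these 31 targets (36.1% of all genes tested).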

How the data were processed

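The deposited mRNA table holds log2 values per gene, although its name speaks of counts; whether and how the authors normalized them is not stated. The values are fractional, run from -1.966 to 17.85, and are 0 in all 6 libraries or in none. The base is not stated and was taken as 2. Per the submitters' processing notes, bcl2fastq, kallisto 0.46.1 and mm10 were used; how these values were then made was not given in the sources used here. Low values are shrunk together (median range over 6 libraries 0.0773 at a mean of 2 to 3, 0.262 at 9 to 10), so folds of weak genes may be understated, and the depth is unknown. Values of single genes were not compared with each other, since they are not per length. The summed marker levels add unlogged values over genes, so markers with high values weigh most in them. Group and replicate number came from the titles, which do not say that tumours came from separate mice, so p-values measure the spread between these libraries. The miRNA table was not used.

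Rows at 0 (12658) and rows with a calendar date for a symbol (26) were left out. Stress was compared with control on the 14098 genes whose log2 values averaged 4 or more, by limma 3.58.1 in R 4.3.3 (variance trend, robust, two-sided, Benjamini-Hochberg over all genes, threshold 0.05). The fit was checked on simulated data. Named were all 10 members, the 2 smallest p of each list, and the genes nearest in pattern (5 to the mean, 3 to Fos). Genes outside this rule are marked. The members and lists were chosen with earlier results of these data known. Alternatives were other filters, scalings, variance models, covariates, a replicate block and leaving out each library.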

Additional observations from a re-analysis of the deposited data

How the results depend on the processing

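None of the 10 genes was called in any of the 14 alternative settings, and their median difference stayed above 0 in all of them, from 0.0889 (without stress replicate 3) to 0.330 (without control replicate 2). Directions turned for Egr1 with a skeletal muscle covariate (0.0216 ± 0.344, SE) and with a neutrophil covariate (0.34 ± 0.41, SE). The same held for Junb with a neutrophil covariate (-0.0901 ± 0.225, SE). The cause was not tested. With single libraries left out, the difference ran from -0.0561 to 0.38 for Fos, from -0.39 to 0.13 for Fosb, from -0.26 to 0.23 for Egr1 and from -0.51 to 0.0206 for Nr4a1, and Fosl1, Fosl2, Jun, Junb, Jund and Atf3 stayed above 0. The median pooled SD of the 10 genes then ran from 0.158 to 0.274. Over all genes, 3 higher and 2 lower were called. A mean of at least 6 gave 7 lower, quantile normalization 5 lower, and no variance trend 1 higher and 1 lower; a muscle or neutrophil covariate gave 0 of each. Without single libraries the counts ran from 0 to 4 higher and from 0 to 2 lower. A replicate block called 0 genes in either direction (Atf3 0.59, adjusted p = 0.178). The numbers are not shown to pair the tumours: deviations from group means correlated, over genes, at -0.0790, 0.0815 and -0.0183 for replicates 1, 2 and 3, and not every library correlated best with its own number. The unknown depth prevents any limit on weak expression.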

Other observations

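Among the AP-1 and EGR1 target genes, Ptgs2 was noticed after its values were seen, because control replicate 2 stood far above the other controls. Ptgs2, which encodes the prostaglandin-forming enzyme COX-2, stood 1.11 above the mean of the other controls in control replicate 2 on the log2 scale. It had 11.52, 11.33 and 11.87 in stress libraries, against 10.79, 11.92 and 10.84 in control libraries. The groups differed by 0.39 ± 0.31 (SE; limma adjusted p = 0.543).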
